A study of Mus musculus with 4 samples.

Results

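Autophagy receptors and core genes were followed across 4 sorted fractions of a mouse acute myeloid leukaemia. The 10 genes are Sqstm1, Nbr1, Map1lc3b, Gabarap, Gabarapl1, Gabarapl2, Ulk1, Becn1, Wipi1 and Atg7, taken by symbol from the probe annotation, out of 18193 genes on the array. They have 30 probe sets (sets of short oligonucleotides against a transcript) among the 45037 that are not controls. The leukaemia arose after HoxA9 and Meis1 were introduced into marrow cells of an NS-GFP transgenic mouse, in which part of the nucleostemin (NS) promoter drives GFP. Its cells, from bone marrow on a C57BL/6 background, were sorted by surface c-Kit, a receptor of immature blood cells, and by GFP level. The c-Kit+ cells were taken from a high gate (c-Kit+ NS-GFP high) and a middle gate (c-Kit+ NS-GFP middle), and the c-Kit- cells from the same middle gate (c-Kit- NS-GFP middle) and a low one (c-Kit- NS-GFP low). The fractions are called c-Kit+ high, c-Kit+ middle and, without the receptor, c-Kit- middle and c-Kit- low below. All 4 fractions carry both the oncogenes and the reporter, and no normal marrow was analysed here. GFP reports on the cloned promoter region and not on the nucleostemin gene itself, and the number of animals was not stated in the sources used here.

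Each fraction was hybridised to 1 array, so every difference below is between 2 arrays, with no replicate error and no test. Repeat measures exist only where a gene has further probe sets. From such genes, the log2 ratio of 1 probe set had an SD of 0.48 for c-Kit+ high over c-Kit- low, 0.37 at the middle gate (c-Kit+ over c-Kit- cells), 0.30 for c-Kit+ high over c-Kit+ middle cells, and 0.36 for c-Kit- middle over c-Kit- low. It covers probe error and not the variation between sorts or animals. Signals are quantile-normalized intensities, and those at or under a floor of 15.3, the median of all probe sets, were not read as levels. A gene is given by its brightest probe set unless another is named, and a fold of at least 2 serves as a descriptive threshold. Signals of different genes or probe sets are not on a common scale, so levels are compared only between fractions.

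In macroautophagy a double membrane closes around cytoplasmic cargo and fuses with the lysosome, where the cargo is degraded. The ULK1 kinase starts the process, the Beclin 1 complex makes phosphatidylinositol 3-phosphate (PI3P) on the growing membrane, and WIPI proteins bind that lipid. ATG7 activates the ubiquitin-like proteins of the LC3 and GABARAP families for attachment to the membrane, where receptors such as p62 (Sqstm1) and NBR1 hold ubiquitin-tagged cargo. In mice, loss of Atg7 in blood cells depletes haematopoietic stem cells. Much of the regulation acts on proteins, and p62 is itself degraded by autophagy, so RNA levels are not a measure of autophagic flux.

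The ends of the sort are c-Kit+ high and c-Kit- low cells, and between them 3 of the 10 genes were at least 2-fold lower in c-Kit+ high cells: Sqstm1 (10.2-fold), Ulk1 (2.76-fold) and Wipi1 (2.20-fold). The share of all 11278 genes measured in that comparison was 13.6% lower and 16.1% higher by that much, and 0 of the 10 were higher. Across the 10 genes 9 had a log2 ratio below 0, against 45.2% of all genes, and their median was -0.87, against 0.09 for all genes. With so few genes these counts describe the 10 and do not set them apart. Counted by probe set, 23 of 27 measured were below 0, 11 were at least 2-fold lower and 0 were higher in c-Kit+ high cells. Probe sets of the same gene are repeat measures and not separate genes, Wipi1 having 6 of the 30. No share over all probe sets is given beside these counts. In bulk RNA of this kind, fewer cells of a type and less RNA per cell cannot be told apart.

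**Figure D1:**
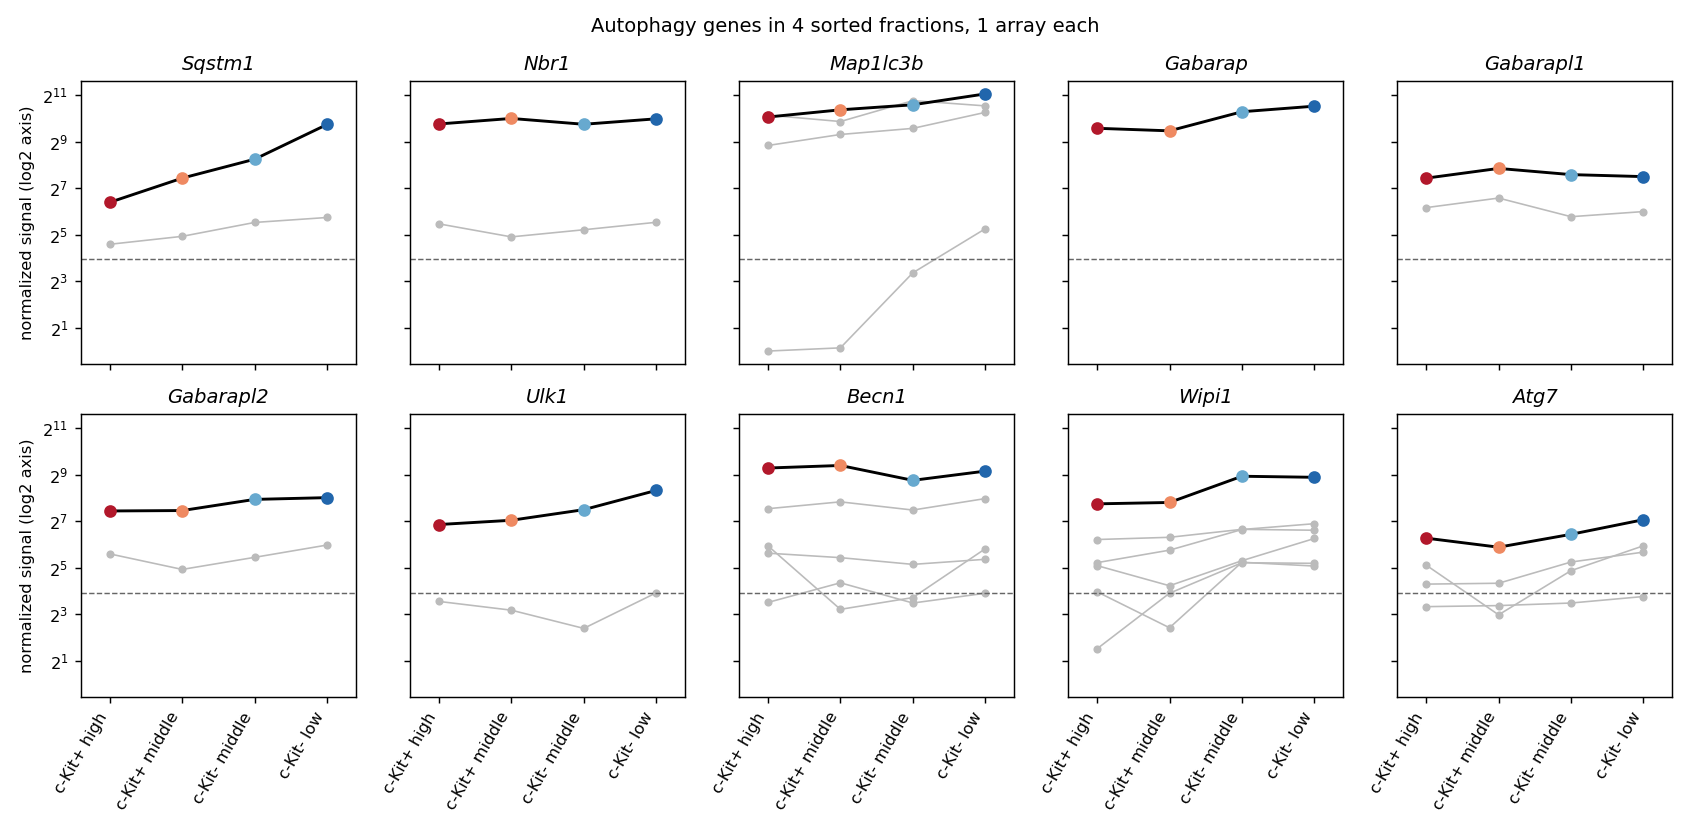
Normalized signal (log axis) of every probe set of the 10 autophagy genes on the 4 arrays, from c-Kit+ high on the left to c-Kit- low on the right; each line is a probe set, and signals below 1 are drawn at 1. The brightest Sqstm1 probe set is at 83.8 in c-Kit+ high and 851 in c-Kit- low cells, while that of Nbr1 stays between 856 and 1018.

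The plot of signals by fraction shows the genes in 3 kinds. In 7 of the 10 genes (Sqstm1, Map1lc3b, Gabarap, Gabarapl2, Ulk1, Wipi1 and Atg7) both c-Kit+ arrays lay below both c-Kit- arrays, an arrangement found in 25.7% of the genes above the floor on at least 1 array. Becn1 alone had both c-Kit+ arrays above both c-Kit- arrays, as had 32.1% of all genes. In Nbr1 and Gabarapl1 the c-Kit+ and c-Kit- arrays overlapped. Sqstm1, Map1lc3b, Gabarapl2 and Ulk1, 4 of the 10, were lowest in c-Kit+ high cells and higher at each step to c-Kit- low, an order held by 12.3% of all genes. These arrangements are those of the brightest probe sets, and some dimmer ones, among them probe sets of Map1lc3b, Gabarapl1, Gabarapl2, Becn1 and Atg7, were arranged differently. Of the 30 steps between neighbouring fractions in the orders of the 10 genes, 22 were smaller than 0.48, the widest probe SD. By that measure most neighbours in these orders did not differ beyond probe error. Some of the 22 passed the smaller SD of their own comparison, among them Ulk1 at the middle gate and Atg7 between the c-Kit+ fractions.

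Upstream windows are shown for the 3 genes past 2-fold and for Atg7, the only 1 of the 10 with a window that held the E-box searched. The 250 bases before the annotated start were taken from RefSeq (GRCm38.p6) for 9 of the 10 genes, in 10 windows, Becn1 having no entry. Capitals mark the GC box (GGGCGG on either strand, so also CCGCCC) in Sqstm1, Ulk1 and Wipi1, and the E-box CACGTG in Atg7. The windows are chr11:50210821-50211070 (minus strand) for Sqstm1, chr5:110810082-110810331 (minus strand) for Ulk1, chr11:109611390-109611639 (minus strand) for Wipi1 and chr6:114670846-114671095 (plus strand) for Atg7, each written 5' to 3' on the strand of its gene.
Sqstm1: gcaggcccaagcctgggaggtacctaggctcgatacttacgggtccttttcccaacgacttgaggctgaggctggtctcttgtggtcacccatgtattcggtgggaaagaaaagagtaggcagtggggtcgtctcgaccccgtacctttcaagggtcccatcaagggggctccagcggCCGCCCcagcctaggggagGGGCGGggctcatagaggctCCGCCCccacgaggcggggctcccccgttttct
Ulk1: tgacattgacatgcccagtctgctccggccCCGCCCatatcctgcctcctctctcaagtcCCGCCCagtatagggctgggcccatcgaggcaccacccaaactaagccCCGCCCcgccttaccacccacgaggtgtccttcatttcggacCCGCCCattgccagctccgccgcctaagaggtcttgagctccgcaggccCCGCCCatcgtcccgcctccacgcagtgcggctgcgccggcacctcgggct
Wipi1: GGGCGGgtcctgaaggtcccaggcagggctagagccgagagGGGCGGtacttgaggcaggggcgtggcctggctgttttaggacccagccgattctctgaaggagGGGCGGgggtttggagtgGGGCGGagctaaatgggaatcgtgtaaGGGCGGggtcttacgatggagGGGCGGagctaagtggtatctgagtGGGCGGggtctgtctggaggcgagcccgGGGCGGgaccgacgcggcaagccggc
Atg7: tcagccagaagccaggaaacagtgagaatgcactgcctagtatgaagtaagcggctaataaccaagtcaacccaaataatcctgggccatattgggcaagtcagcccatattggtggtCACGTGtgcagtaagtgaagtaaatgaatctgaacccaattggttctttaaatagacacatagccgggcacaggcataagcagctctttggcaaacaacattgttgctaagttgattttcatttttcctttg
The GC box, bound by SP family factors, was in 6 of the 10 windows and in 32.7% of all 32851 windows of that length. It had 3 matches in Sqstm1, 5 in Ulk1 and 8 in Wipi1. G and C made up 63.2%, 67.2% and 67.2% of these windows, against a median of 52.4% over all windows. The others with a match held 69.6% (Map1lc3b), 57.2% (Gabarapl2) and 46.8% (Gabarapl1). The part of base composition in the GC box count was not tested. The E-box CACGTG, which TFEB, TFE3 and MITF can bind, was in 1 of the 10 windows (Atg7, bases -132 to -127 from the start) and in 6.02% of all windows. No window of the 10 held its longer form TCACGTGA (0.785% of all windows), the FOXO element GTAAACA (3.17%) or the antioxidant response core TGACNNNGC (10.2%), each searched on both strands. These are matches of letters in a short window and no evidence of binding.

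Sqstm1 encodes p62, which binds ubiquitin on cargo and LC3 on the membrane and also takes part in NF-kappaB and KEAP1 signalling. The signal of its brightest probe set was 83.8 in c-Kit+ high cells, 172 in c-Kit+ middle cells, 302 in c-Kit- middle cells and 851 in c-Kit- low cells. The 4 fractions stood apart at every step, and each step was wider than the probe SD. The log2 ratio of c-Kit+ high over c-Kit- low was -3.34, and 1.15% of all genes had a lower one. Its range over the fractions was wider than that of 98.4% of genes above the floor on at least 1 array. Both GFP comparisons held part of it, with c-Kit+ high 2.06-fold below c-Kit+ middle (log2 ratio -1.04) and c-Kit- middle 2.81-fold below c-Kit- low (log2 ratio -1.49). At the middle gate the c-Kit+ cells were 1.76-fold below the c-Kit- cells (log2 ratio -0.81), short of the threshold.

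A dimmer Sqstm1 probe set kept the order of the fractions with a smaller spread. It read 24.0 in c-Kit+ high cells, 30.4 in c-Kit+ middle cells, 46.0 in c-Kit- middle cells and 53.4 in c-Kit- low cells. Its log2 ratio was -1.15 at the ends of the sort, -0.34 for c-Kit+ high over c-Kit+ middle cells and -0.21 for c-Kit- middle over c-Kit- low. With the mean of both probe sets the GFP comparisons gave -0.69 within c-Kit+ and -0.85 within c-Kit- cells, under the threshold. The size of the Sqstm1 difference thus depends on the probe set, and both place c-Kit+ high at least 2-fold below c-Kit- low. Set against c-Kit- middle instead, c-Kit+ high had a log2 ratio of -1.85 on the brightest probe set.

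Nbr1, a receptor built much like p62 that also takes part in the removal of peroxisomes, did not follow it. Its signal was 864 in c-Kit+ high cells, 1018 in c-Kit+ middle cells, 856 in c-Kit- middle cells and 1007 in c-Kit- low cells. On the brightest probe set no comparison passed the probe SD, the log2 ratios lying between -0.24 and 0.25, and 11.4% of genes had a narrower range. The dimmer Nbr1 probe set read 44.1 in c-Kit+ high cells, 30.0 in c-Kit+ middle cells, 37.0 in c-Kit- middle cells and 46.2 in c-Kit- low cells, with a log2 ratio of -0.07 at the ends of the sort and 0.56 for c-Kit+ high over c-Kit+ middle.

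**Figure D2:**
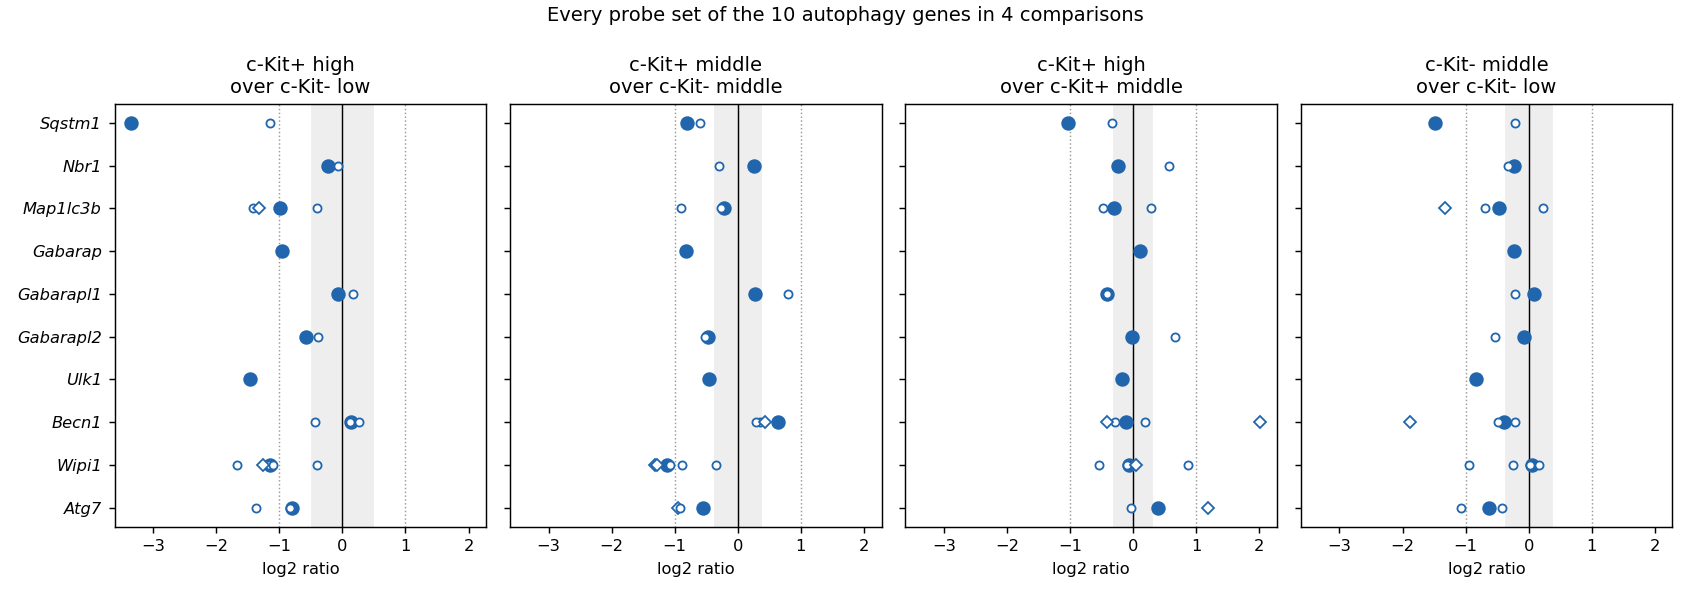
Log2 ratio of each probe set of the 10 autophagy genes in the 4 comparisons (filled, brightest probe set of the gene; open, other probe sets; diamond, 1 array at the floor, so the ratio is a bound); the grey band is plus or minus the SD of a single probe set and dotted lines mark 2-fold. Sqstm1 reaches -3.34 in c-Kit+ high over c-Kit- low, and its 2 probe sets both lie past 2-fold there.

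Among the ubiquitin-like proteins that coat the autophagosome, the members of the LC3 and GABARAP families differed from each other. Map1lc3b, which encodes LC3B, had 1062 in c-Kit+ high cells, 1316 in c-Kit+ middle cells, 1529 in c-Kit- middle cells and 2115 in c-Kit- low cells. The ends of the sort differed 1.99-fold (log2 ratio -0.99), just under the threshold and beyond the probe SD. Its other probe sets ranged widely at the ends, with log2 ratios of -0.40 and -1.42 for those above the floor on every array. The second brightest, nearly as bright, did not keep the stepwise order, at 1124 in c-Kit+ high cells, 929 in c-Kit+ middle cells, 1730 in c-Kit- middle cells and 1481 in c-Kit- low cells. It gave -0.90 at the middle gate, against -0.22 on the brightest, and 0.27 and 0.22 within c-Kit+ and c-Kit- cells, against -0.31 and -0.47. The dimmest was above the floor in c-Kit- low cells only, at 38.2, so that c-Kit+ high was at least 2.50-fold lower.

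Gabarap, measured by 1 probe set, had 759 in c-Kit+ high cells, 704 in c-Kit+ middle cells, 1243 in c-Kit- middle cells and 1467 in c-Kit- low cells. On quantile-normalized signals the split ran with c-Kit and hardly with GFP. The log2 ratio was -0.95 at the ends of the sort and -0.82 at the middle gate, against 0.11 for c-Kit+ high over c-Kit+ middle cells and -0.24 for c-Kit- middle over c-Kit- low. With the authors' scaling the middle gate gave -0.64 and c-Kit- middle over c-Kit- low -0.45, where the median of all genes was -0.27. On its brightest probe set Gabarapl2 (GATE-16) had the same kind of split at a smaller size, with 174 in c-Kit+ high cells, 176 in c-Kit+ middle cells, 246 in c-Kit- middle cells and 259 in c-Kit- low cells, and log2 ratios of -0.57 at the ends and -0.48 at the middle gate. Its dimmer probe set gave -0.38 and -0.52 for the same pairs, but did not keep the split: it read 48.5 in c-Kit+ high cells, 30.5 in c-Kit+ middle cells, 43.8 in c-Kit- middle cells and 63.1 in c-Kit- low cells, so that the c-Kit+ and c-Kit- arrays overlapped. Its ratios within c-Kit status were as wide (0.67 for c-Kit+ high over c-Kit+ middle cells and -0.53 for c-Kit- middle over c-Kit- low). For the brightest Gabarapl2 probe set the authors' scaling gave -0.32 at the middle gate and -0.38 for c-Kit- middle over c-Kit- low. On its brightest probe set Gabarapl1 did not show that split, at 172 in c-Kit+ high cells, 230 in c-Kit+ middle cells, 191 in c-Kit- middle cells and 180 in c-Kit- low cells. Its log2 ratio at the ends of the sort was -0.07, within the probe SD. On that probe set the difference beyond the probe SD was between the c-Kit+ fractions (c-Kit+ high over c-Kit+ middle, -0.42), with -0.41 on a dimmer one. The dimmer probe set had both c-Kit+ arrays above both c-Kit- arrays, at 71.6 in c-Kit+ high cells, 95.1 in c-Kit+ middle cells, 54.6 in c-Kit- middle cells and 63.6 in c-Kit- low cells, with log2 ratios of 0.80 at the middle gate and 0.17 at the ends.

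Ulk1 encodes the kinase that starts autophagosome formation and that AMPK activates and mTORC1 inhibits. Its signal was 116 in c-Kit+ high cells, 132 in c-Kit+ middle cells, 181 in c-Kit- middle cells and 321 in c-Kit- low cells. The widest step set c-Kit- low apart from the other 3 fractions (c-Kit- middle over c-Kit- low, log2 ratio -0.83). At the middle gate the log2 ratio was -0.46, beyond the probe SD of that comparison (0.37) and within the widest one. Between the c-Kit+ fractions it was -0.18, within the probe SD. The log2 ratio at the ends of the sort was -1.47, which 7.90% of genes went below, but c-Kit+ high over c-Kit- middle gave -0.64, under the threshold. Its other probe set was at the floor on every array. Taking the mean of both probe sets could therefore only shrink the ratio at the ends, to -0.73, and is no second measure.

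Becn1, the gene of Beclin 1, the scaffold of the lipid kinase complex that makes PI3P, was not lower in c-Kit+ cells by its brightest probe set. Its signal was 625 in c-Kit+ high cells, 674 in c-Kit+ middle cells, 433 in c-Kit- middle cells and 570 in c-Kit- low cells. Of the 2 comparisons across c-Kit status, only the middle gate set c-Kit+ above c-Kit- cells by more than the probe SD (1.56-fold, log2 ratio 0.64), while the ends differed by 0.13. The second probe set, with 186 in c-Kit+ high cells, 228 in c-Kit+ middle cells, 179 in c-Kit- middle cells and 252 in c-Kit- low cells, gave 0.35 at the middle gate and -0.43 at the ends. The sign at the ends of the sort therefore depended on the probe set. A dimmer one, whose suffix marks probes that can match other transcripts, was above the floor in c-Kit+ high (61.6) and c-Kit- low (56.5) cells only.

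Wipi1, which binds PI3P on the forming autophagosome, split by c-Kit status and not by GFP on its brightest probe set. It had 215 in c-Kit+ high cells, 224 in c-Kit+ middle cells, 489 in c-Kit- middle cells and 474 in c-Kit- low cells. This made it 2.20-fold lower at the ends of the sort (log2 ratio -1.14) and 2.18-fold lower in c-Kit+ cells of the middle gate (log2 ratio -1.13). It was the only 1 of the 10 past 2-fold at the middle gate, where 5.29% of all genes were at least 2-fold lower and 3.57% at least 2-fold higher in c-Kit+ cells. Within each c-Kit status the fractions differed by -0.06 (c-Kit+ high over c-Kit+ middle) and 0.05 (c-Kit- middle over c-Kit- low, -0.25 with the authors' scaling). Under that scaling the middle gate gave -0.96, which ends the 2-fold call. Of the 5 dimmer Wipi1 probe sets, 4 were also at least 2-fold lower at the ends of the sort, with log2 ratios from -1.67 to -1.11, while the second brightest gave -0.40. A dimmer one also differed within c-Kit status, by 0.87 for c-Kit+ high over c-Kit+ middle cells and -0.95 for c-Kit- middle over c-Kit- low.

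Atg7, the activating enzyme of both ubiquitin-like conjugation systems of autophagy, had 77.5 in c-Kit+ high cells, 59.2 in c-Kit+ middle cells, 86.8 in c-Kit- middle cells and 134 in c-Kit- low cells. The log2 ratio was -0.79 at the ends of the sort and -0.55 at the middle gate, both beyond the probe SD and under 2-fold. With the authors' scaling (-1.05) and in the second table (-1.02) the ends passed 2-fold. The GFP comparisons were also beyond the probe SD, at 0.39 for c-Kit+ high over c-Kit+ middle cells and -0.63 for c-Kit- middle over c-Kit- low. For c-Kit+ high over c-Kit- middle it was -0.16. Its second brightest probe set was at the floor in c-Kit+ middle cells, so that c-Kit+ high was at least 2.27-fold higher than c-Kit+ middle, and c-Kit- middle was 2.10-fold below c-Kit- low. At the ends of the sort the dimmer probe sets gave -0.83 and -1.37, and another was at the floor on every array.

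**Figure D3:**
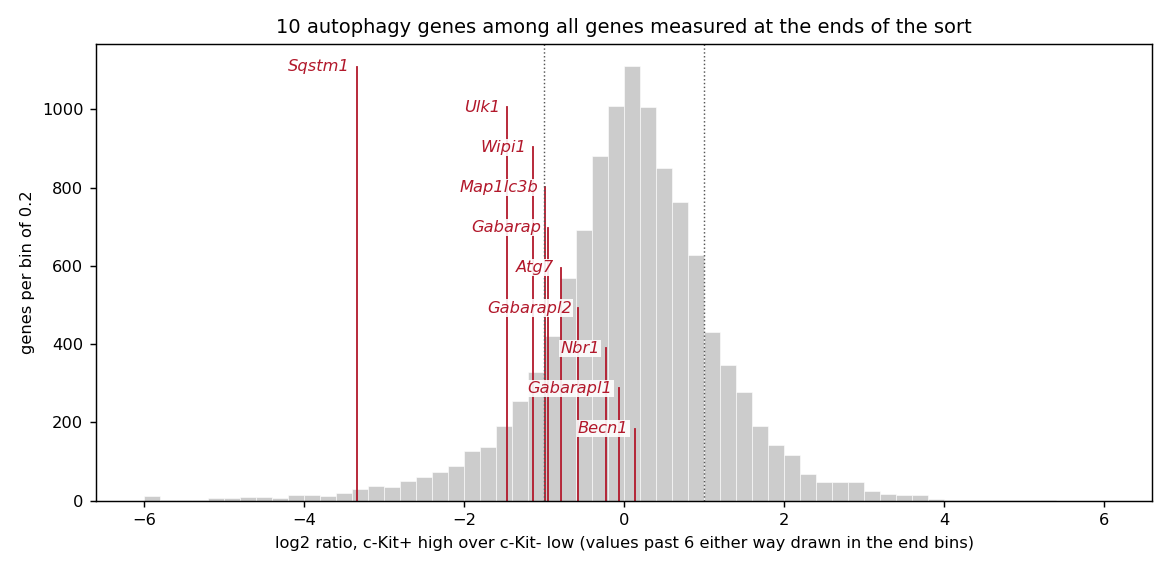
Histogram of the log2 ratio of c-Kit+ high over c-Kit- low for the 11278 genes measured (grey, bins of 0.2), with a red line for each of the 10 autophagy genes and dotted lines at 2-fold. Sqstm1 stands at -3.34, Ulk1 at -1.47 and Wipi1 at -1.14, Map1lc3b lies at the 2-fold line with -0.99, and the rest lie between -0.95 and 0.13.

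The histogram places the 10 genes among all genes at the ends of the sort. For c-Kit+ high over c-Kit+ middle, Sqstm1 was the 1 gene of the 10 at least 2-fold lower, against 1.01% of all genes in either direction, and the median of the 10 was -0.15 (0.02 for all genes). For c-Kit- middle over c-Kit- low it was again Sqstm1 alone, against 5.46% of all genes lower and 6.67% higher, with a median of -0.32 for the 10 (0.03 for all genes). At the middle gate the median was -0.47 (0.02 for all genes). These comparisons share arrays with the ends of the sort and are not separate evidence.

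Most other genes of the autophagy machinery also had log2 ratios below 0 at the ends of the sort. Of 59 listed genes that are not among the 10, 56 were measured at the ends of the sort: in c-Kit+ high cells 13 were lower and 3 higher by at least 2-fold, 47 were below 0, and the median was -0.53 (0.09 for all genes). The 13 of 56 that were lower stand beside 13.6% of all genes, the 3 higher beside 16.1%, and the 47 below 0 beside 45.2%. At the middle gate and between the c-Kit+ fractions 0 of 56 were past 2-fold, with medians of -0.07 and -0.05. Of all genes, 5.29% were lower and 3.57% higher at the middle gate, and 1.01% either way between the c-Kit+ fractions. For c-Kit- middle over c-Kit- low 8 of 56 were lower and 0 higher (5.46% and 6.67% of all genes), with a median of -0.42. Without the c-Kit- low array, c-Kit+ high over c-Kit- middle gave 3 of 56 lower and a median of -0.23, with 6.52% of all genes at least 2-fold lower and 4.89% higher.

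**Figure D4:**
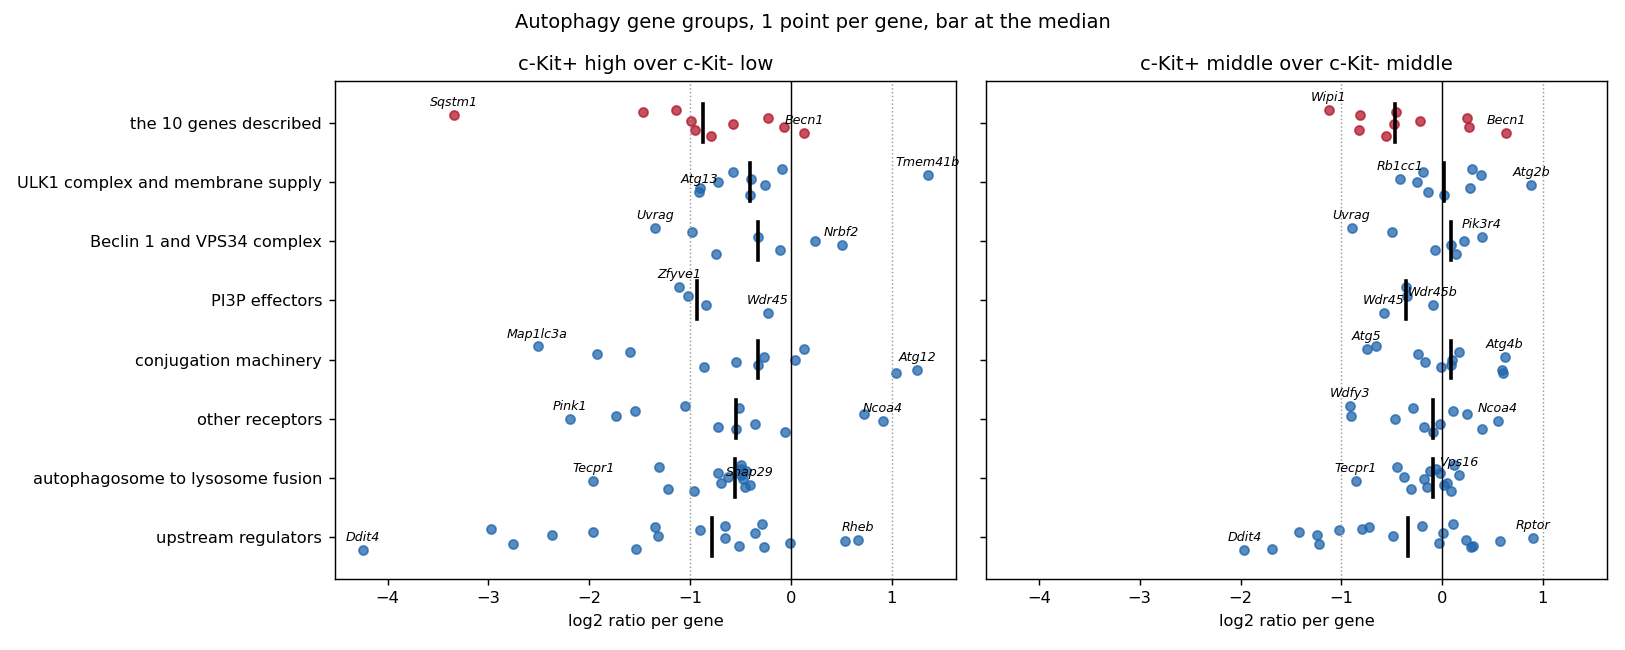
Log2 ratio of each measured gene of the autophagy lists (blue points; red, the 10 genes described) with the list's median (bar), for 2 comparisons of the sort on a shared axis; the dotted lines mark 2-fold. At the ends of the sort (left) the medians run from -0.93 for the PI3P effectors to -0.32 for the Beclin 1 and VPS34 complex, all below 0.

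The plot of the lists shows each step of the pathway. Beside the counts at the ends of the sort, 13.6% of all genes were at least 2-fold lower and 16.1% higher. Of the 9 measured genes that work with ULK1 or supply membrane, 1 was past 2-fold at the ends of the sort: Tmem41b, a lipid scramblase, at 150 in c-Kit+ high cells, 103 in c-Kit+ middle cells, 78.9 in c-Kit- middle cells and 58.5 in c-Kit- low cells (2.57-fold higher). The lowest of that list was Atg13, a subunit of the ULK1 complex, at -0.91, and its median was -0.41. In the Beclin 1 and VPS34 complex 1 of 7 was past 2-fold, the subunit gene Uvrag (324 in c-Kit+ high cells, 279 in c-Kit+ middle cells, 519 in c-Kit- middle cells and 824 in c-Kit- low cells, 2.54-fold lower), with a list median of -0.32, and the highest ratio was that of Nrbf2, another subunit gene (0.51). Among the 4 other PI3P effectors Wipi2, a relative of Wipi1, was 2.03-fold lower, and Zfyve1 was at the floor in c-Kit+ high cells, at least 2.15-fold lower, so that 2 of 4 passed. The highest of the 4 was Wdr45, at -0.23.

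The conjugation machinery held genes of both directions. At the ends of the sort 3 of 11 were lower and 2 higher (13.6% and 16.1% of all genes). Map1lc3a, which encodes LC3A, had 99.4 in c-Kit+ high cells, 120 in c-Kit+ middle cells, 188 in c-Kit- middle cells and 567 in c-Kit- low cells (5.71-fold lower). Of the proteases that process LC3 and GABARAP, Atg4c was 3.79-fold and Atg4d 3.02-fold lower. Higher in c-Kit+ high cells were Atg12, the ubiquitin-like protein joined to ATG5 (403 in c-Kit+ high cells, 404 in c-Kit+ middle cells, 267 in c-Kit- middle cells and 169 in c-Kit- low cells, 2.39-fold), and Atg10, the enzyme that joins them (2.07-fold). Atg12 and Atg10 thus lay on the other side of 0 from Map1lc3a, Atg4c and Atg4d.

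Among other cargo receptors and linked genes, in c-Kit+ high cells 4 of 11 were at least 2-fold lower and 0 higher. At the ends of the sort 13.6% of all genes were lower and 16.1% higher by that much. The median of the receptor list was -0.54. Pink1, the kinase that marks damaged mitochondria, had 283 in c-Kit+ high cells, 467 in c-Kit+ middle cells, 647 in c-Kit- middle cells and 1290 in c-Kit- low cells (4.56-fold lower). Retreg1 and Tex264, both receptors for endoplasmic reticulum, were 3.33-fold and 2.92-fold lower, and Wdfy3, a scaffold for aggregate clearance, 2.07-fold lower. Receptor genes on the other side of 0 were Ncoa4, the receptor for ferritin (log2 ratio 0.92), and Tax1bp1, a ubiquitin-binding receptor (0.73), both under 2-fold. Of the genes for fusion with the lysosome 3 of 14 were past 2-fold, Tecpr1 (3.89-fold lower), the HOPS subunit gene Vps41 (2.47-fold lower) and Plekhm1 (2.33-fold lower). All 14 were below 0 at the ends, against 45.2% of all genes, the highest being Snap29, a fusion SNARE (-0.40). All 14 were also below 0 for c-Kit- middle over c-Kit- low, but 9 of 14 at the middle gate.

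Genes that act upstream of autophagy were also mostly lower in c-Kit+ high cells, with 8 of 18 at least 2-fold lower and 0 higher at the ends of the sort (13.6% and 16.1% of all genes) and a median of -0.78. Ddit4, an mTORC1 inhibitor made under stress, had 83.8 in c-Kit+ high cells, 145 in c-Kit+ middle cells, 567 in c-Kit- middle cells and 1589 in c-Kit- low cells (19.0-fold lower). Transcription factors of lysosome and autophagy genes were among them. Mitf had 42.2 in c-Kit+ high cells, 86.1 in c-Kit+ middle cells, 201 in c-Kit- middle cells and 285 in c-Kit- low cells (6.76-fold lower at the ends). Tfe3 had 73.3 in c-Kit+ high cells, 65.9 in c-Kit+ middle cells, 176 in c-Kit- middle cells and 286 in c-Kit- low cells (3.90-fold lower). Tfeb was 1.87-fold lower at the ends and 2.03-fold lower at the middle gate. Trp53inp1 (7.88-fold), Sesn2 (5.18-fold), Foxo1 (2.89-fold) and Sesn1 (2.49-fold) were lower as well, and Trp53inp2 was at the floor in both c-Kit+ fractions (at least 2.55-fold lower at the ends). The highest of the list was Rheb, the small GTPase that activates mTORC1, at a log2 ratio of 0.66. At the middle gate 6 of the 18 (Ddit4, Foxo1, Tfe3, Sesn2, Mitf and Tfeb) were at least 2-fold lower and 0 higher (5.29% and 3.57% of all genes). Between the c-Kit+ fractions 2 of 17 measured, Trp53inp1 (2.40-fold) and Mitf (2.04-fold), were lower in c-Kit+ high cells and 0 higher (1.01% of all genes either way).

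Between the c-Kit- fractions 8 of 56 machinery genes were at least 2-fold lower in c-Kit- middle cells and 0 higher, against 5.46% and 6.67% of all genes. The 8 came from 4 steps of the pathway. Map1lc3a (3.01-fold), Atg4c (2.30-fold) and Atg4d (2.27-fold) belong to conjugation, Calcoco1 (2.69-fold) and Tex264 (2.51-fold) are receptors, and Tecpr1 (2.37-fold) and Vps18 (2.13-fold) act at fusion. The eighth, Atg2a, a lipid transfer protein of the growing membrane, had 30.8 in c-Kit- middle cells, against 77.0 in c-Kit- low cells (2.50-fold lower). Of the 18 upstream genes 2 were at least 2-fold lower between the c-Kit- fractions and 0 higher. They were Ddit4 (2.81-fold) and the mTORC1 subunit gene Rptor (2.71-fold).

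Genes whose profile over the 4 fractions was closest to that of Sqstm1, by Euclidean distance of centred log2 signals over 9146 genes above the floor on every array, were Ap2a2 (distance 0.03), Apbb1ip (0.16), Tgfbr2 (0.18), Dennd1c (0.18) and Sik1 (0.30). Ap2a2, a subunit of the clathrin adaptor AP-2, had 60.2 in c-Kit+ high cells, 123 in c-Kit+ middle cells, 221 in c-Kit- middle cells and 619 in c-Kit- low cells. Each profile has 4 points, so the likeness is a description of these arrays.

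Markers of other cells moved with these differences. Summed signals of the macrophage and monocyte markers (7 of 8 on the array) were 2817 in c-Kit+ high cells, 3619 in c-Kit+ middle cells, 7492 in c-Kit- middle cells and 10149 in c-Kit- low cells, with C1qa and C1qc at the floor on every array. Csf1r alone gave 1388, 2112, 5210 and 6871 of these sums, in the same order of fractions. The 6 dendritic and MHC class II markers summed to 778 in c-Kit+ high cells, 978 in c-Kit+ middle cells, 1419 in c-Kit- middle cells and 4597 in c-Kit- low cells. Flt3 alone gave 602, 818, 918 and 1280 of them, and so most of the first 3 sums. At the middle gate 4 of 5 measured markers of this list were lower in c-Kit+ cells, and H2-Ab1 was higher (log2 ratio 0.77). Late neutrophil markers (6 of 7) summed to 3199 in c-Kit+ high cells, 3160 in c-Kit+ middle cells, 3522 in c-Kit- middle cells and 7419 in c-Kit- low cells. Ngp makes up much of that sum. At the middle gate Mmp8 was 25.1-fold, Mmp9 at least 6.99-fold and Ltf 5.35-fold lower in c-Kit+ cells. The list did not go one way there: Camp (log2 ratio 0.59) and Ngp (0.53) were higher in c-Kit+ cells, and Lcn2 (-0.51) was lower. The sums add probe sets that are not on a common scale, so the brightest weigh most. B and plasma cell markers (5 of 6) gave 194 in c-Kit+ high cells and 179 in c-Kit+ middle cells. They gave 821 in c-Kit- middle cells and 5631 in c-Kit- low cells. Most of that rise was Igha, at 65.4 in c-Kit+ high and 4915 in c-Kit- low cells. In the same fractions Jchain read 22.1 and 538, and Cd79b 98.9 and 162. Cd79a and Ms4a1 were at the floor on every array. Cd3e, Cd3g and Cd3d of the T and NK list (5 of 6, summing to 37.1 to 91.4) and Hba-a1 and Epb42 of the erythroid list (4 of 6, summing to 14.6 to 94.4) were also at the floor on every array. The sums take in values under the floor. In both c-Kit+ fractions 0 erythroid markers were above it, and in c-Kit- middle cells 0 T and NK markers, so those sums are not levels. Mpo, a granulocyte precursor gene, read 7309 in c-Kit+ high cells, 7087 in c-Kit+ middle cells, 763 in c-Kit- middle cells and 193 in c-Kit- low cells, and Kit read 479 in c-Kit+ high cells, 690 in c-Kit+ middle cells, 26.4 in c-Kit- middle cells and, at the floor, 6.58 in c-Kit- low cells. The myeloid list of 8 genes, all on the array, went both ways at the ends of the sort: Kit, Mpo and Elane were at least 2-fold higher and Cd33, Itgam, Spi1 and Ptprc at least 2-fold lower in c-Kit+ high cells, with a median log2 ratio of -1.29. The ratio of 3' to 5' probe signal, a sign of RNA quality taken from the control probe sets, was 4.70 in c-Kit+ high cells, 3.98 in c-Kit+ middle cells, 3.28 in c-Kit- middle cells and 2.50 in c-Kit- low cells for Actb, and 3.10 to 3.91 without that order for Gapdh. The part of these cells and of RNA quality in the values of the autophagy genes was not tested.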

How the data were processed

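RNA from 4 sorted fractions was extracted with TRIzol and hybridised as biotin-labelled cRNA, per the labels' protocols. GCOS 1.2, MAS5 and R 3.0.2 are named in the submitters' processing notes, which do not say what each produced. Linear intensity per probe set was deposited in a first table (45101 rows, of which 64 controls were left out). The log2 values that the authors deposited in a second table cover 17419 probe sets and are equal to log2 of the first plus 1 constant per array (within 9.99e-09), and served as an alternative.

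Intensities were quantile normalized, floored at the 50th percentile (15.3) and taken to log2. Probe sets with 1 gene in the platform annotation (34945, of which 34741 were matched by gene ID to current symbols) were used, and the one with the highest mean signal stood for its gene. Genes at the floor on both arrays of a comparison were left out, and with 1 array at the floor the fold is a bound. Each group has 1 array, so no test was run and the number of arrays limits the precision. Named genes are the 10, the highest and lowest of each list at the ends of the sort, listed genes at least 2-fold apart in a main comparison, and the 5 genes closest to Sqstm1. Tax1bp1, Gclc, Brca1 and the markers were named after their values were seen. The members and lists were chosen with earlier results of these data known. Alternatives were the authors' scaling, the second table, other floors, other probe set rules, a 1.5-fold threshold, and c-Kit- middle standing in for c-Kit- low. Python 3.11.15, numpy 2.4.6 and pandas 2.3.3 were used, and the scripts were tested on simulated data.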

Additional observations from a re-analysis of the deposited data

How the results depend on the processing

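The number of the 10 genes past 2-fold at the ends of the sort was 3, and was 2 for c-Kit+ high over c-Kit- middle. It became 1 (of 8 measured) with the second brightest probe set and 6 with a 1.5-fold threshold. With the authors' scaling and in the second table it was 4, all lower, Atg7 being added. Of all genes, 14.2% were at least 2-fold lower with the second brightest probe set, 17.1% with the authors' scaling and 15.8% in the second table, against 13.6%. With the mean of probe sets the number was again 3, with Map1lc3b (-1.03) past 2-fold and Ulk1 (-0.73) not (10.8% of all genes lower). The Ulk1 mean takes in a probe set at the floor on every array, which can only shrink its ratio. For the counts at 1.5-fold no share of all genes is given here. At the middle gate the number was 1. It became 0 with the authors' scaling (4.07% of all genes lower), 0 with the second brightest probe set (4.70%) and 4 at 1.5-fold (3 lower, 1 higher). For c-Kit+ high over c-Kit+ middle it was 1, and became 0 with a floor at percentile 75 (0.17% of all genes lower) and 0 with the mean of probe sets (0.50%). With the second brightest probe set it was again 1, but another gene in the other direction (Atg7, 1.18, with Sqstm1 at -0.34). For c-Kit- middle over c-Kit- low it was 1. It became 0 with the mean of probe sets (3.79% of all genes lower), 2 with the authors' scaling (11.5%) and 3 at 1.5-fold. The second brightest probe set gave 1 (5.55% of all genes lower), Atg7 (-1.07), with Sqstm1 at -0.21. The median of the 10 stayed below 0 in each comparison and setting except c-Kit+ high over c-Kit+ middle, where it was 0.07 with the mean of probe sets and 0.09 with the second brightest, against -0.15. Of 280 values of single genes under these settings 260 kept their direction. With a floor at percentile 25 or with none the values could not change. The brightest probe sets of the 10 genes were above the main floor on every array. The count is thus no measure of stability. Sqstm1 at the ends of the sort ranged from -3.50 to -1.15 on the log2 scale. Gabarapl1 (0.09) and Wipi1 (0.05) in c-Kit- middle over c-Kit- low were -0.22 and -0.25 with the authors' scaling. That scaling moved the median of all genes to -0.08 at the ends of the sort, 0.17 at the middle gate and -0.27 in c-Kit- middle over c-Kit- low (0.09, 0.02 and 0.03 otherwise). Of genes past 2-fold, the share higher was then 42.5%, 57.2%, 39.0% and 23.0% for the ends, the middle gate, the c-Kit+ pair and the c-Kit- pair, against 54.1%, 40.3%, 50% and 55.0%, and it was 20.9% for the c-Kit+ pair in the second table. The cause of these shifts was not tested. No paired analysis was possible because each group has 1 array.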

Other observations

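Genes of the KEAP1 and NRF2 system, which p62 joins by binding KEAP1, did not go one way. Of 9 listed genes 7 were measured at the ends of the sort, with a median log2 ratio of -0.04. There 1 was lower and 1 higher by at least 2-fold (13.6% and 16.1% of all genes). Hmox1, haem oxygenase, was at the floor in both c-Kit+ fractions, at 40.6 in c-Kit- middle cells and 75.2 in c-Kit- low cells, so that c-Kit+ high was at least 4.92-fold lower. Txnrd1, thioredoxin reductase, had 545 in c-Kit+ high cells, 656 in c-Kit+ middle cells, 328 in c-Kit- middle cells and 250 in c-Kit- low cells (2.18-fold higher). Gclc, the catalytic subunit of glutathione synthesis, had 359 in c-Kit+ high cells, 337 in c-Kit+ middle cells, 274 in c-Kit- middle cells and 188 in c-Kit- low cells (1.91-fold higher). Nqo1 and Slc7a11 were at the floor on every array.

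Nbr1 lies next to Brca1, the protein-coding gene before it in the RefSeq annotation. Brca1, a DNA repair gene, had 521 in c-Kit+ high cells, 465 in c-Kit+ middle cells, 243 in c-Kit- middle cells and 67.2 in c-Kit- low cells (7.77-fold higher at the ends of the sort), while Nbr1 differed 1.17-fold the other way.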
